A study of Mus musculus with 40 samples.

Results

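The mitochondrial ribosomal protein genes were described here across single and repeated closed head injury (CHI) in mouse cortex. They were taken as every mouse gene row whose symbol began with Mrpl or Mrps followed by a digit, without the rows marked as pseudogenes, and with 10 or more counts in at least 35 of 39 samples. The rule found 78 genes among 55539 listed features, and all 78 passed the count minimum, which 15224 features passed in all. By their known place in the ribosome, 51 belong to the large subunit, 26 to the small subunit, and 1, Mrps36, to neither. The mice were 3xTg-AD females, a C57BL/6J line aged a few months that carries mutant human APP and tau transgenes and a mutant presenilin 1, and RNA was taken from somatomotor cortex of the left side. Injury was a weight drop on the closed skull under anesthesia, given once a day. The groups were sham mice, which had anesthesia without a blow (n = 4), and mice after 1xCHI (n = 10), 2xCHI (n = 3), 3xCHI (n = 9), 4xCHI (n = 3) and 5xCHI (n = 10), so that the number before the x counts the blows. After 1xCHI, 3xCHI and 5xCHI the cortex was taken 0.5, 4 or 24 h after the last blow, and after 2xCHI and 4xCHI at 24 h. Every mouse carried the same transgenes, no wild-type mice were compared, and sham mice of several time points stood as 1 group. One further library, sample 30, was left out of every comparison. Read totals per library ran from 15926014 to 27859547, with a median of 19028778.

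The mitochondrial ribosome translates the few messenger RNAs that the mitochondrial genome itself encodes, all of them for subunits of the respiratory chain and ATP synthase. Its ribosomal RNAs are made inside the organelle, but every one of its proteins is encoded in the nucleus, translated in the cytosol and imported. Compared with its bacterial ancestor it has lost RNA and gained proteins, so that some members descend from bacterial ribosomal proteins and others are found only in mitochondria. Of the genes described here, 46 encode proteins of bacterial ancestry and 31 proteins added in mitochondria. The large subunit joins amino acids and holds the exit tunnel, and the small subunit reads the messenger RNA. Mrps36 kept its ribosomal name but encodes a subunit of the 2-oxoglutarate dehydrogenase complex of the citric acid cycle.

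The promoters of nuclear mitochondrial genes are known for sites of NRF1, of the ETS factor GABP and of YY1, so the sequence just before the start is shown for 5 members. RefSeq (GRCm38.p6) windows from 250 bases before to 50 after a start were at hand for 69 of the 78 genes, and not for Mrpl13, Mrpl15, Mrpl19, Mrpl38, Mrpl4, Mrpl54, Mrps28, Mrps34 and Mrps35. On either strand, the NRF1 core CGCATGCG stood in the windows of 7 of the 69 genes (10.1%), against 2.07% of the 27025 genes in the whole set. The ETS motif CCGGAAGT stood in 12 of 69 (17.4%, against 4.31%) and the YY1 motif AAGATGGC in 12 of 69 (17.4%, against 3.19%). At least 1 of these 3 motifs was found for 29 of 69 genes, or 42.0%, against 9.03% of all genes. The SP1 motif GGGGCGGGG was found for 13 of 69 (18.8%, against 12.9%). None of these motifs holds another of them, and a match describes the letters only. The 120 bases before the start are printed for Mrpl17 and Mrpl22, which have an NRF1 core there, for Mrps22, which has an ETS motif there, and for Mrps36 and Mrpl55, which have neither and stood first in the comparison of 1xCHI with sham. Capitals mark the NRF1 core or the ETS motif, and the stretch of Mrps36 holds the SP1 motif, left in lower case. The stretches lie in GRCm38 with Mrpl17 at chr7:105811088-105811207 on the minus strand, Mrpl22 at chr11:58171544-58171663 on the plus strand, Mrps22 at chr9:98601680-98601799 on the minus strand, Mrps36 at chr13:100744660-100744779 on the minus strand, Mrpl55 at chr11:59202366-59202485 on the plus strand.
Mrpl17: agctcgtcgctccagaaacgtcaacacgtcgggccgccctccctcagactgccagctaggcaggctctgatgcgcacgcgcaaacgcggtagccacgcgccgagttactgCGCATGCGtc
Mrpl22: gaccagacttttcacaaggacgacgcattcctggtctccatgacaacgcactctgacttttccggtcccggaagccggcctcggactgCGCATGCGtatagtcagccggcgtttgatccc
Mrps22: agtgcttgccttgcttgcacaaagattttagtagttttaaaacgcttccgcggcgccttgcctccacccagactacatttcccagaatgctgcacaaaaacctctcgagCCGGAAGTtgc
Mrps36: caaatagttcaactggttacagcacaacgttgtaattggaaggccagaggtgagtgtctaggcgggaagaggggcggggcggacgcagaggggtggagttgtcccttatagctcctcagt
Mrpl55: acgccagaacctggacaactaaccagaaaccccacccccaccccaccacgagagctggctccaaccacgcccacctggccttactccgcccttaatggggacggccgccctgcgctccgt

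Some libraries stood apart, and they are named before the values they touch. The samples carry running numbers from 1 to 40, and earlier work on these data had shown that samples 1 to 18 differ from samples 19 to 40. The labels do not call these numbers a batch. All groups but 2xCHI and 4xCHI have samples on both sides, but only 1 of the 4 sham libraries, sample 06, is numbered under 19. The 10 neuron markers, all of which passed the count minimum, summed to 9220 to 10500 CPM, the count scaled to library size in the 6 libraries of 1xCHI numbered 13 to 18, to 12000 to 12400 CPM in the 4 others of 1xCHI and to 11000 to 12600 CPM in sham. The 8 astrocyte markers summed to 3000 to 4310 CPM in those 6 libraries, to 4230 to 5130 CPM in those 4 and to 3970 to 5080 CPM in sham. Markers of meninges, a tissue that can come off with the cortex, summed to 80.2 to 394 CPM in those 6, to 66.3 to 80.6 CPM in those 4 and to 85.5 to 148 CPM in sham. Of 5 choroid plexus markers only 2 passed the count minimum, and these summed to 22.2 to 43.7 CPM in those 6, to 7.04 to 17.0 CPM in those 4 and to 5.27 to 18.8 CPM in sham. Sample 11, a 5xCHI library of 24 h, had the lowest neuron sum of all (7430 CPM) and the highest microglia (1080 CPM) and astrocyte (7320 CPM) sums. Sample 10, a 5xCHI library of 4 h, came next in each (8880, 820 and 6610 CPM). The choroid plexus sum was above that of all 1xCHI libraries in 5xCHI samples 31 (2460 CPM), 32 (1250 CPM) and 12 (394 CPM). So it was in 4xCHI sample 24 (825 CPM) and 2xCHI sample 29 (141 CPM). In bulk tissue, fewer cells of a type and less RNA per cell cannot be told apart.

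All 78 genes were expressed in this cortex. Mean levels over the 39 samples ran from 5.42 to 68.1 CPM with a median of 25.1 CPM. Divided by summed exon length, which allows genes to be compared, they ran from 3.25 to 56.2 CPM per kilobase with a median of 17.2. The median was 17.3 CPM per kilobase in the large subunit and 16.4 in the small. Mrps21, which encodes bS21m of the small subunit, stood highest at 56.2 CPM per kilobase, followed by Mrpl42 (mL42 of the large subunit) at 50.3 and Mrps34 (mS34 of the small subunit) at 41.8. The lowest were Mrpl1, for the protein of the L1 stalk, at 3.25, Mrpl17 at 3.3 and Mrps35 at 4.55 CPM per kilobase. Their summed exon lengths were long for this set, at 4295, 7605 and 4162 bases. The exons of Mrps34 overlap those of Nme3 on the same strand, so part of its count may belong to that gene.

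The members with a well-known role spread over much of this range. Mrpl12, which forms the stalk that recruits translation factors, reached 32.3 CPM per kilobase, and Mrpl10, at the base of that stalk, 23.2. Mrps12, of the decoding centre, reached 23.1 CPM per kilobase. Mrpl45, which anchors the ribosome to the inner membrane, reached 13.3, and Mrpl58, a peptidyl-tRNA hydrolase that became part of the large subunit, reached 14.3. The 3 paralogs of the bacterial S18 protein stood at 30.1 CPM per kilobase for Mrps18a, 17.6 for Mrps18b and 19.3 for Mrps18c. Only the last is placed where bacterial S18 sits, and Mrps18a belongs to the large subunit despite its name. So does Mrps30, at 5.76 CPM per kilobase.

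Most members varied together from mouse to mouse. Over the 39 samples, the log2 level of a member correlated with the mean of the other 77 at a median r of 0.80, with 62 of 78 members above 0.5 and the highest for Mrpl43 at 0.92. These correlations describe shared libraries and shared scaling, and no test was made of them. A small set did not follow the rest. The lowest r values were those of Mrpl3 (-0.26), Mrpl35 (-0.23), Mrpl50 (-0.073), Mrps17 (-0.053) and Mrps31 (-0.013), which were picked out after their values were seen. Mrpl3, which encodes uL3m of the large subunit core, varied by only 4.72% (coefficient of variation over all samples) and Mrps17 by 4.33%. In sham, Mrpl3 stood at 59.6, 61.3, 61.5 and 65.8 CPM, and after 1xCHI between 55.9 and 66.1 CPM. The widest variation was that of Mrps6 (26.1%), whose exons overlap Slc5a3 on the same strand, and of Mrpl52 (23.4%). Without sample 11 these were 17.0% and 22.4%, so the first place of Mrps6 rested on that library.

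**Figure D1:**
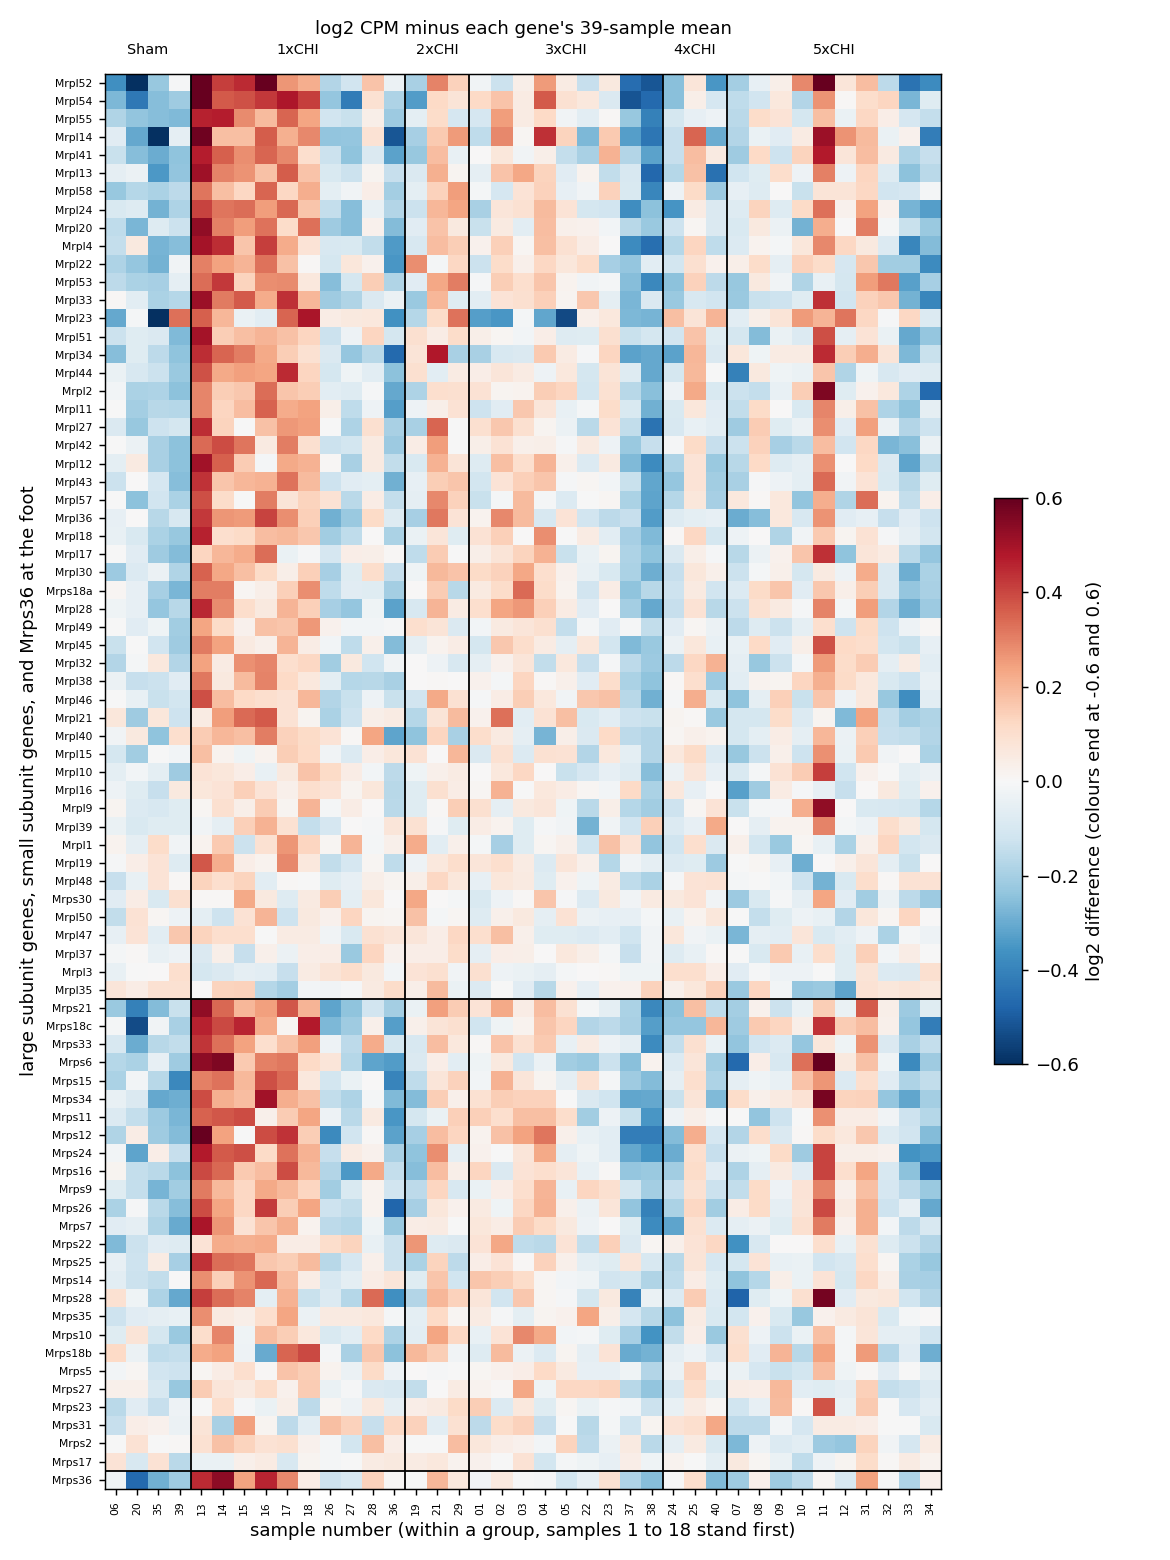
Heat map of the 78 genes (rows) in the 39 samples (columns), coloured by log2 CPM minus each gene's mean over all samples, with colours ending at -0.6 and 0.6. Rows are ordered by subunit and then by the log2 fold change of 1xCHI over sham, and columns by group. The red block marks 1xCHI samples 13 to 18. Among the 5xCHI samples, sample 11 (mean over the 78 genes 0.22) and sample 31 (0.12) stand above the mean of all samples. Mrpl3 and Mrps17 stay pale in every column.

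The first question was what 1 blow does to these genes. After 1xCHI, 76 of the 78 members were higher than in sham, with a median log2 fold change of 0.22 and a range from -0.068 to 0.61. Over all 15224 features tested the median was 0.013 and 7987 were higher. No member passed an adjusted p of 0.05 in edgeR's quasi-likelihood test, and neither did any other feature (0%). At an unadjusted p under 0.05, 43 members were higher and 0 lower, a share of 55.1% against 10.9% of all features. That count was 27 without sample 13 and 25 without sham sample 35 or sham sample 39. It was 49 without sample 27 and 51 without sample 36. Both subunits showed this direction. The median was 0.22 over the 51 genes of the large subunit, 26 of them under the unadjusted threshold, and 0.23 over the 26 of the small subunit, with 16 under it. Members of bacterial ancestry (median 0.23) and those added in mitochondria (median 0.19) stood close to each other. DESeq2 called 1 member, Mrps36, at an adjusted p under 0.05 (1.28%, against 0.158% of features), and 44 were higher without adjustment (56.4%, against 11.3%).

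Mrps36 (chr13:100735955-100744659, GRCm38) had the lowest p of the set. Its 4 sham libraries stood at 15.7, 17.8, 18.7 and 21.3 CPM, and its 10 libraries after 1xCHI had a lowest level of 19.9, a median of 24.8 and a highest of 31.5 CPM. The groups overlapped at their edge, where the 19.9 and 20.3 CPM of samples 26 and 27 lay below the highest sham library. The log2 fold change was 0.45 ± 0.10 (SE; adjusted p = 0.21, edgeR). Mrpl55 (chr11:59202486-59206134), for bL31m of the large subunit, stood at 14.9, 15.0, 15.2 and 15.8 CPM in sham and from 15.4 to 24.8 CPM after 1xCHI. Its samples 13 to 18 lay at 20.4 to 24.8 CPM, clear of sham, while samples 26, 27, 28 and 36 lay at 15.4 to 18.3 CPM. The log2 fold change was 0.41 ± 0.11 (adjusted p = 0.22).

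Mrpl58 (chr11:115403752-115412674) is the hydrolase that can free stalled chains from the mitochondrial ribosome. It stood at 31.6, 32.5, 32.9 and 33.2 CPM in sham and from 32.1 to 47.2 CPM after 1xCHI, where only sample 36 lay among the sham values. The log2 fold change was 0.30 ± 0.085 (adjusted p = 0.22). Mrpl52 (chr14:54426909-54429756), a large subunit protein of mitochondrial origin, had the widest difference of the set. Sham libraries stood at 6.25, 8.24, 9.08 and 10.6 CPM and those after 1xCHI at 9.44 to 17.8 CPM, and the log2 fold change was 0.61 ± 0.17 (adjusted p = 0.22). Mrps35 was the only member whose 10 libraries after 1xCHI all lay above all 4 sham libraries (18.4 to 22.9 against 17.3 to 18.3 CPM). That pattern was met by 0.217% of all features.

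**Figure D2:**
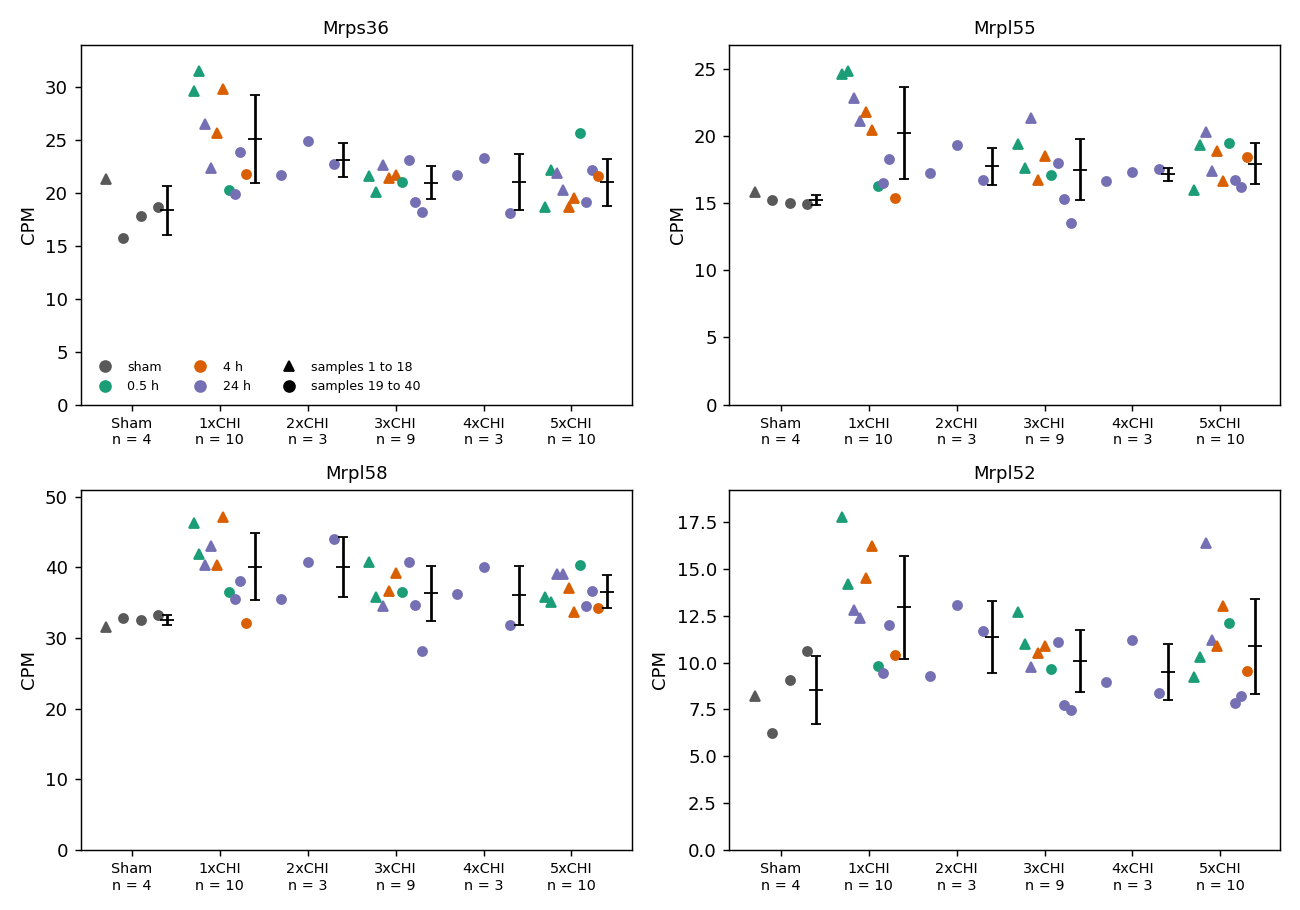
Levels in CPM of Mrps36, Mrpl55, Mrpl58 and Mrpl52 in each of the 39 samples by injury group, with colour for the time after the last blow, triangles for samples 1 to 18, circles for samples 19 to 40, and bars for mean ± SD. The highest sample of each panel is a triangle after 1xCHI (31.5, 24.8, 47.2 and 17.8 CPM), and in the panel of Mrpl55 all 6 triangles after 1xCHI stand above its 4 circles.

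Other genes of known role were also higher on average after 1xCHI, by varying amounts. Mrpl12 stood at 39.1 ± 3.75 CPM in sham (SD, n = 4) and 46.1 ± 7.12 CPM after 1xCHI (n = 10), a log2 fold change of 0.24 ± 0.11 (SE; adjusted p = 0.27). Mrps12 stood at 19.1 ± 1.87 and 23.4 ± 5.40 CPM, with a log2 fold change of 0.29. For Mrpl45 it was 0.17 and for Mrpl10 0.12. Among the S18 paralogs, the values were 0.33 for Mrps18c, 0.19 for Mrps18a and 0.13 for Mrps18b. Mrps30 (0.045), Mrpl1 (0.063) and Mrps31 (0.055) lay closest to no difference among the genes named by rule. None of these passed the adjusted threshold.

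The difference after 1xCHI lay in one set of libraries. The mean log2 difference of the 78 genes from their 39-sample mean was -0.12 ± 0.029 in sham (SD, n = 4) and 0.086 ± 0.15 after 1xCHI (n = 10). The 6 libraries numbered 13 to 18 stood at 0.13 to 0.30, and these cover all 3 times after injury. The 4 libraries numbered 26, 27, 28 and 36 stood at -0.16 to 0.028, and the 4 sham libraries at -0.14 to -0.079. Among samples 19 to 40 alone, the median log2 fold change of 1xCHI over sham was 0.051, with 60 of 78 members higher and 1 at an unadjusted p under 0.05 (1.28%, against 1.95% of features higher). With the number range (1 to 18, or 19 to 40) as a covariate, it was 0.15, with 22 members higher under the unadjusted threshold (28.2%, against 5.73% of features). Within samples 1 to 18 sham has 1 library, which stood at -0.079, below all 6 libraries of 1xCHI. Number range and injury could be told apart only in part, since 1xCHI has 6 samples under 19 and sham 1. The neuron and choroid plexus marker sums given above also set these 6 libraries apart from the other 1xCHI and the sham libraries, while the astrocyte and meninges sums overlapped. The part of these markers in the result was not tested.

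**Figure D3:**
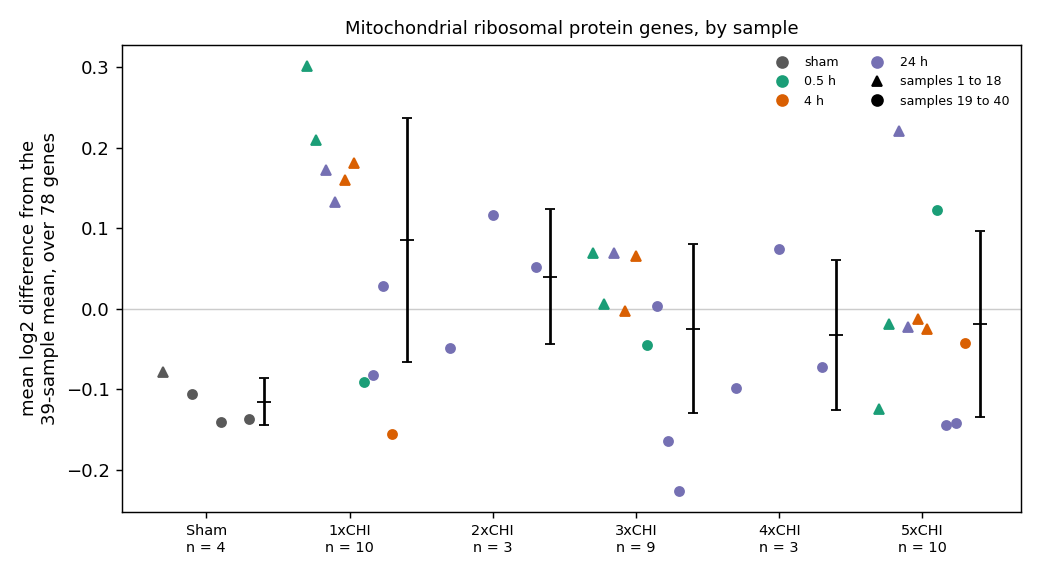
Mean log2 difference of the 78 genes from their 39-sample mean, 1 point per sample, by injury group, with colour for time after the last blow, triangles for samples 1 to 18 and circles for samples 19 to 40. Bars are mean ± SD. The 6 triangles after 1xCHI (0.13 to 0.30) stand above every sham sample (-0.14 to -0.079), and the 4 circles after 1xCHI (-0.16 to 0.028) spread around sham.

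Gene length moved with these values. The members are short, with a median summed exon length of 1380 bases against 3301 over all features, and 52 of 78 fall in the shortest length quartile of features (2041 bases or less). Across all features, the median log2 fold change of 1xCHI over sham was 0.19 in the shortest quartile, 0.044 and -0.038 in the next 2, and -0.12 in the longest. The 52 short members had a median of 0.25 and all were higher. The 26 longer members had a median of 0.13, and 24 were higher. By sample, the members' mean log2 difference minus that of all features in the shortest quartile was 0.015 ± 0.052 in sham (SD, n = 4) and 0.029 ± 0.026 after 1xCHI (n = 10). With a length trend removed from each library, the median of the 78 members was 0.043, 52 were higher and 17 of them stood at an unadjusted p under 0.05 (21.8%, against 6.46% of features higher). Longer members that stayed above their length quartile included Mrpl17 (7605 bases, log2 fold change 0.22) and Mrps14 (3233 bases, 0.21). What sets the length trend was not tested.

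**Figure D4:**
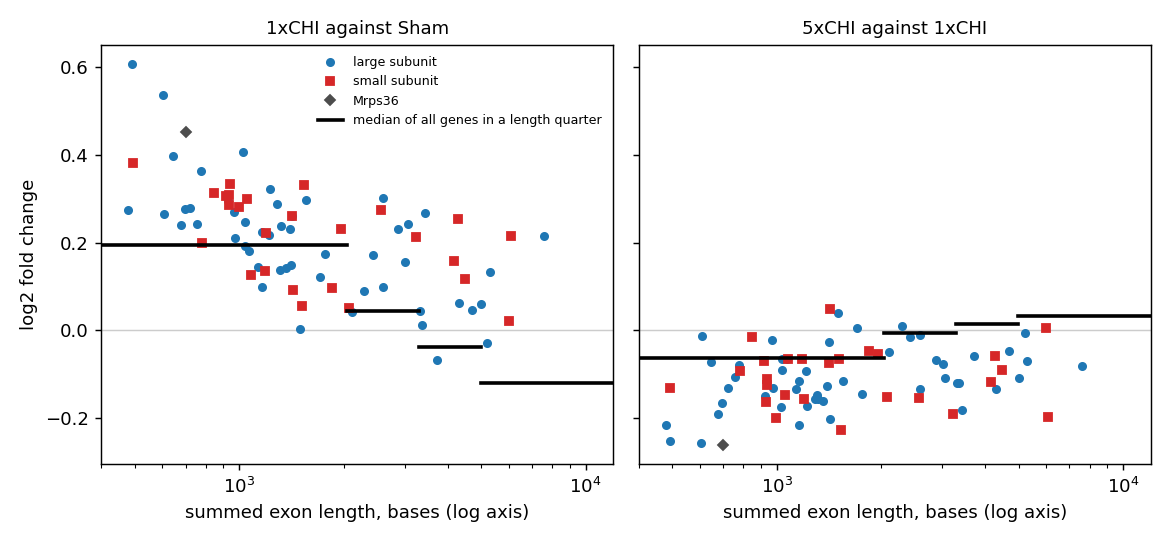
Log2 fold change of each of the 78 genes against its summed exon length on a log axis, for 1xCHI over sham (left) and 5xCHI over 1xCHI (right), with black lines for the median of all features in each length quartile. On the left both the points and the lines fall with length, from a median of 0.19 in the shortest quartile to -0.12 in the longest. On the right most points lie under the line of their quartile.

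The repeated injuries were next compared with sham. After 2xCHI, 76 of 78 members were again higher, with a median log2 fold change of 0.16 while over all features the median was at 0. No member and no other feature (0%) passed the adjusted threshold in edgeR, 7 members (8.97%) were higher at an unadjusted p under 0.05 against 2.33% of all features, and DESeq2 called 0 with adjustment and 7 without. All 3 libraries lay above all 4 sham libraries for 15 members (19.2%, against 4.54% of all features), among them Mrps36, Mrpl55, Mrpl58, Mrps21, Mrps23, Mrpl22, Mrpl42 and Mrps18c. Mrpl58 stood at 35.5, 40.7 and 44.0 CPM after 2xCHI against 31.6 to 33.2 CPM in sham, a log2 fold change of 0.30 ± 0.11 (SE; adjusted p = 0.94). Mrps36 stood at 21.7, 22.7 and 24.9 CPM, with a log2 fold change of 0.33 ± 0.13 (adjusted p = 0.94). All libraries of 2xCHI are numbered over 18, and among samples 19 to 40 the median was 0.18, with 9 members higher under the unadjusted threshold (11.5%, against 5.01% of features). With the length trend removed it was 0.040. The number range as covariate gave a median of 0.19, with 27 members higher without adjustment (34.6%, against 6.8% of features), and a fit of only the 2 groups gave 15 (19.2%, against 4.12%). Without sham sample 20 or either of samples 21 and 29, 3 members passed without adjustment.

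After 3xCHI, 67 members were higher than in sham and the median was 0.098. No feature (0%) passed the adjusted threshold, and 2 members, Mrps9 and Mrps21, were higher without adjustment (2.56%, against 2.26% of all features). DESeq2 gave 0 and 2. The count was 7 without sample 38, 4 without sample 37, 1 without sample 01, 02, 05, 23 or sham sample 20 or 39, and 0 without sample 03, 04, 22 or sham sample 35. Mrps9 (uS9m of the small subunit) stood at 29.9 ± 1.82 CPM in sham (SD, n = 4) and 34.3 ± 3.02 after 3xCHI (n = 9), and Mrps21 at 22.9 ± 1.76 and 27.5 ± 3.46 CPM. Their log2 fold changes were 0.20 ± 0.091 and 0.26 ± 0.13 (SE; adjusted p = 0.91 for both). Those of Mrps33 and Mrpl55 were 0.18 and 0.20. No member had all its 3xCHI libraries above all sham libraries, as 0.243% of features did. With the length trend removed the median was 0.0060 and 42 members were higher. With the number range as covariate it was 0.043 and among samples 19 to 40 it was 0.026, each with 0 members under the unadjusted threshold.

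After 4xCHI, 68 members were higher with a median of 0.080. None passed the adjusted threshold (0% of features) and 0 passed without adjustment (0.663% of features higher). DESeq2 gave 0 with adjustment and 1 without, and edgeR gave 3 without adjustment when sample 24 was left out. For 4 members (5.13%, against 2.55% of features) the 3 libraries lay above all of sham: Mrpl55, Mrps11, Mrps22 and Mrps31. Mrps22, for mS22 of the small subunit, stood at 15.0, 15.5 and 16.0 CPM against 12.2, 13.4, 13.9 and 14.0 CPM in sham, a log2 fold change of 0.21 ± 0.11 (SE; adjusted p = 1.0). Mrps31 stood at 17.6, 17.8 and 19.5 CPM against 15.1, 16.2, 16.9 and 17.1 CPM, a log2 fold change of 0.17. With the length trend removed the median over the members was 0.018 and 45 were higher. The number range as covariate gave a median of 0.12, with 4 members higher without adjustment (5.13%, against 2.11% of features). Among samples 19 to 40 and in a fit of only the 2 groups 2 were higher (2.56%, against 2.54% and 1.53%).

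After 5xCHI, 66 members were higher with a median of 0.11. None passed the adjusted threshold (0% of features), and 5 members were higher without adjustment (6.41%, against 7.51% of features), so their share did not exceed the background. These were Mrpl41, Mrpl55, Mrps23, Mrps9 and Mrpl52. DESeq2 gave 0 with adjustment and 5 without. Mrpl41 (mL41 of the large subunit) stood at 26.1 ± 1.31 CPM in sham (SD, n = 4) and 31.7 ± 4.88 after 5xCHI (n = 10), a log2 fold change of 0.28 ± 0.12 (SE; adjusted p = 0.41). Without sample 11, the median over the members was 0.061 and 1 member stood under the unadjusted threshold. Leaving out sham sample 20 or sham sample 35 also brought that count to 1, leaving out sample 31 brought it to 2, and leaving out sample 33 brought it to 9. With the length trend removed the median was -0.0010 and 38 of 78 members were higher, so the direction was lost. With the number range as covariate it was 0.046, with 0 members under the unadjusted threshold. Among samples 19 to 40 it was 0.061, with 64 of 78 members higher and 5 under that threshold (6.41%, against 5.05% of features in either direction), 4 of them higher. For Mrpl55 and Mrpl58, all 10 libraries of 5xCHI lay above all 4 of sham (0.217% of features), at 16.0 to 20.3 CPM and 33.7 to 40.4 CPM. These comparisons share the 4 sham libraries.

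Repeated injury was also set against a single one. After 3xCHI, 2 of 78 members were higher than after 1xCHI and the rest were not, and the median log2 fold change was -0.12. None passed the adjusted threshold (0% of features), 16 were lower without adjustment against 7.76% of features, and DESeq2 gave 0 and 16. That count was 4 without sample 38, 5 without sample 13 or 37, 8 without sample 16, 10 without sample 14, 17 or 22, 28 without sample 27 and 29 without sample 36. Under library size scaling it was 4 (5.13%). There 10.7% of features passed in either direction, and 6.26% of features were higher. The median was -0.042 with the length trend removed. From 1xCHI to 5xCHI, 5 members were higher, the median was -0.11, and 24 were lower without adjustment against 8.63% of features. That count ran from 16 without sample 17 to 38 without sample 36. Under library size scaling it was 12 (15.4%). There 16.9% of features passed in either direction, and 11.0% of features were higher. The median was -0.067 with the length trend removed. None passed the adjusted threshold in edgeR, although 2.27% of features did, and the smallest adjusted p was 0.059, for Mrps36. DESeq2 called 5 members (6.41%, against 4.04% of features), all lower: Mrps36, Mrps33, Mrps14, Mrps2 and Mrpl49. The levels of Mrps36 overlapped, from 19.9 to 31.5 CPM after 1xCHI to 18.7 to 25.7 CPM after 5xCHI, with a log2 fold change of -0.26 ± 0.077 (SE). Those of Mrps33 (mS33) and Mrps14 (uS14m) were -0.23 ± 0.071 and -0.19 ± 0.059 (adjusted p = 0.076 and 0.075). No member had all repeated-injury libraries below all 1xCHI libraries, a pattern met by 0.0197% of features for 3xCHI and 0.00657% for 5xCHI.

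The difference between 5xCHI and 1xCHI also depended on the number range. Among samples 1 to 18, where both groups have 6 libraries taken at the same 3 times, 20 members were lower at an adjusted p under 0.05 in edgeR and 0 higher (25.6%), against 17.7% of all features in either direction, and the median was -0.18. Among samples 19 to 40 the median was 0.014, and 0 members were called (2 without adjustment). This split was added after the data had been seen. Within samples 1 to 18 the numbers run by group, with 3xCHI as samples 1 to 5, 5xCHI as samples 7 to 12 and 1xCHI as samples 13 to 18. Running number and injury therefore cannot be told apart there. Samples 13 to 18 and sample 11 also stood apart in the marker sums given above. In samples 1 to 18 the lowest p belonged to Mrps36 (log2 fold change -0.44, adjusted p = 0.0022, edgeR), Mrps25 (-0.31, adjusted p = 0.0030) and Mrps33 (-0.35, adjusted p = 0.0036). Mrps36 stood at 29.6, 31.5, 25.7, 29.8, 26.5 and 22.4 CPM in the 1xCHI libraries of that range and at 18.7, 22.2, 18.7, 19.5, 21.9 and 20.3 CPM in those of 5xCHI, with no overlap. Mrps21 (-0.34), Mrpl55 (-0.31), Mrps12 (-0.31), Mrpl42 (-0.29) and Mrpl58 (-0.22) were among the others, and these names were chosen after their values were seen. For 3xCHI against 1xCHI in the same range, 2 members were called lower, Mrps36 (-0.36) and Mrpl23 (-0.52), which is 2.56% against 4.74% of features in either direction. Among samples 19 to 40 the median of 3xCHI against 1xCHI was -0.040, with 25 of 78 members higher and 0 under the unadjusted threshold. Mrpl23 has a near copy, Mrpl23-ps1, with a median of 278 counts, so its own count is uncertain.

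The time after the last blow was then examined. Against sham, the median log2 fold change of the members was 0.30 at 0.5 h after 1xCHI (n = 3), 0.20 at 4 h (n = 3) and 0.18 at 24 h (n = 4). None passed the adjusted threshold in edgeR at any of these times (0% of features each). Without adjustment, 44 members were higher and 0 lower at 0.5 h (19.7% of features in either direction), 17 and 0 at 4 h (10.5%), and 13 and 0 at 24 h (6.02%). DESeq2 called Mrps36 at 0.5 h (1.28%, against 0.184% of features) and 0 members at 4 and 24 h, where it called 11 and 0 features. Without adjustment it gave 44, 15 and 14 members (56.4%, 19.2% and 17.9%, against 20.7%, 10.9% and 6.3% of features in either direction). Single libraries moved edgeR's unadjusted counts. At 0.5 h 6 members passed without sample 13 and 23 without sample 14, and library size scaling also gave 23. At 4 h the count was 3 without sample 16, 6 without sample 15, 9 without sham sample 20 or 39, 11 without sham sample 35 and 40 without sample 36. At 24 h it was 4 without sample 17, 6 without sample 18, 8 without sham sample 35 and 24 without sample 26. Mrps36 had a log2 fold change of 0.56 ± 0.13 at 0.5 h, 0.49 ± 0.13 at 4 h and 0.33 ± 0.12 at 24 h (SE). At each time the libraries came from both number ranges. With the number range as covariate the medians were 0.21, 0.12 and 0.14, and 27, 8 and 10 members passed without adjustment (34.6%, 10.3% and 12.8%, against 12.7%, 7.68% and 4.97% of features). With the length trend removed they were 0.055, 0.034 and 0.047. Then 16, 8 and 7 members passed without adjustment (20.5%, 10.3% and 8.97%, against 15.0%, 10.1% and 3.67% of features). At 0.5 h the members' mean log2 difference was 0.30 and 0.21 in samples 13 and 14 and -0.091 in sample 27. Without sample 27, 43 members (55.1%) were called at 0.5 h, against 23.7% of features. Without sample 36, 5 members were called at 4 h (Mrps36, Mrps14, Mrpl22, Mrpl52 and Mrpl58), or 6.41% against 3.8% of features.

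Within the repeated injuries, each time was compared with the state just before the last blow. At 0.5, 4 and 24 h, 3xCHI had samples 04, 05 and 22, then 01 and 03, then 02, 23, 37 and 38. For 5xCHI these were samples 07, 08 and 31, then 09, 10 and 32, then 11, 12, 33 and 34. All libraries of 2xCHI and 4xCHI are numbered over 18. Both libraries of 3xCHI at 4 h are numbered under 19, so number range and injury cannot be told apart in that comparison. Against 2xCHI at 24 h, the median log2 fold change after 3xCHI was -0.032 at 0.5 h, -0.0050 at 4 h and -0.11 at 24 h. The length trend removed gave -0.046, -0.016 and -0.039. With the number range as covariate these were -0.13, -0.14 and -0.15, and 1, 7 and 12 members passed without adjustment (1.28%, 8.97% and 15.4%, against 2.33%, 4.13% and 9.52% of features). No feature passed the adjusted threshold (0% at each time). Without adjustment 0, 0 and 1 members passed, against 1.88%, 2% and 4.57% of features, and the 1 was Mrps10, lower at 24 h. That count at 24 h was 7 without sample 02, 6 without sample 19, 4 without sample 23 and 0 without sample 37 or 38. DESeq2 gave 0 at each time with adjustment and the counts 0, 0 and 1 without. Against 4xCHI at 24 h, the medians after 5xCHI were 0.053 at 0.5 h, 0.018 at 4 h and 0.027 at 24 h. Their sign turned with the number range as covariate (-0.046, -0.085 and -0.065) and with the length trend removed (-0.012, -0.014 and -0.020). Again 0% of features passed with adjustment, and 2, 0 and 0 members passed without it, against 6.36%, 5.33% and 6.44% of features. The 2 were Mrps31 (-0.23) and Mrps30 (-0.21), both lower at 0.5 h, and that count was 0 without sample 07 and 1 without sample 08, 24 or 40. DESeq2 gave 0 at each time with adjustment and the counts 2, 1 and 0 without.

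Across 1xCHI, 3xCHI and 5xCHI together, a test of the 3 times called 0 members, against 0.164% of features, and 2 without adjustment, against 5.85%. DESeq2 gave 0 and 2. The count was 7 without sample 27, 6 without sample 11, 4 without sample 02, and 1 without sample 01, 13, 15, 16, 26, 31 or 33. The 2 were Mrpl22, of the exit tunnel, with a log2 difference of -0.20 between 24 h and 0.5 h, and Mrps14, with log2 differences of 0.11 at 4 h and -0.047 at 24 h from 0.5 h (adjusted p = 0.82 for both). Over the members the median of 24 h minus 0.5 h was -0.061, or -0.010 with the length trend removed and -0.036 with the number range as covariate, where 4 members passed without adjustment (5.13%, against 7.14% of features). Across the 18 libraries of 24 h, a slope on the number of blows called 0 members with adjustment (0% of features). Without adjustment 6 members were lower (7.69%). There 7.94% of features passed in either direction, and 4.68% of features were higher. DESeq2 gave 0 and 6. The median slope was -0.025 per blow, or -0.014 with the length trend removed, and the 6 were Mrps2, Mrps33, Mrps18b, Mrpl1, Mrpl53 and Mrps25. That count was 1 without sample 17, 2 without sample 18, 33 or 34, 3 without sample 28, 24 without sample 11, and 2 under library size scaling.

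Genes that work with the mitochondrial ribosome were read beside its proteins, from lists chosen with earlier results known. After 1xCHI, 3 of the 5 other ribosome subunits without an Mrp symbol were higher than sham at an unadjusted p under 0.05, with a median log2 fold change of 0.20. For all lists the share of features higher at this threshold was 10.9%. Ribosome assembly factors (2 higher and 0 lower of 24, median 0.066), translation factors (2 and 0 of 11, 0.063) and mitochondrial aminoacyl-tRNA synthetases (2 and 1 of 17, 0.073) stood nearer to all features. Factors of mitochondrial transcription and biogenesis were 1 higher and 2 lower of 11, with a median of -0.0040. The larger values were in the mitochondrial genome transcripts, the nuclear genes of the respiratory chain and the cytosolic ribosome. All 13 transcripts of the mitochondrial genome, which the mitochondrial ribosome translates, were higher without adjustment, with a median of 0.44. Of 82 nuclear genes of the respiratory chain 56 were higher and 1 lower (median 0.33), and of 82 cytosolic ribosomal protein genes 68 were higher and 0 lower (median 0.38). No gene of these lists passed the adjusted threshold after 1xCHI. From 1xCHI to 5xCHI, 6 of the 13 mitochondrial transcripts were lower at an adjusted p under 0.05 in edgeR, against 2.27% of features in either direction. The 3 lists with the largest values were those of the shortest genes, and the part of length was not tested. Median exon lengths were 784 bases for the mitochondrial genome, 927 for the nuclear respiratory chain and 944 for cytosolic ribosomal proteins. They were 2494 bases for the 5 ribosome subunits without an Mrp symbol, whose median log2 fold change of 0.20 was larger than that of the shorter assembly factors, and 2138 bases for assembly factors, 2623 for translation factors, 3349 for the synthetases and 4388 for transcription and biogenesis.

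**Figure D5:**
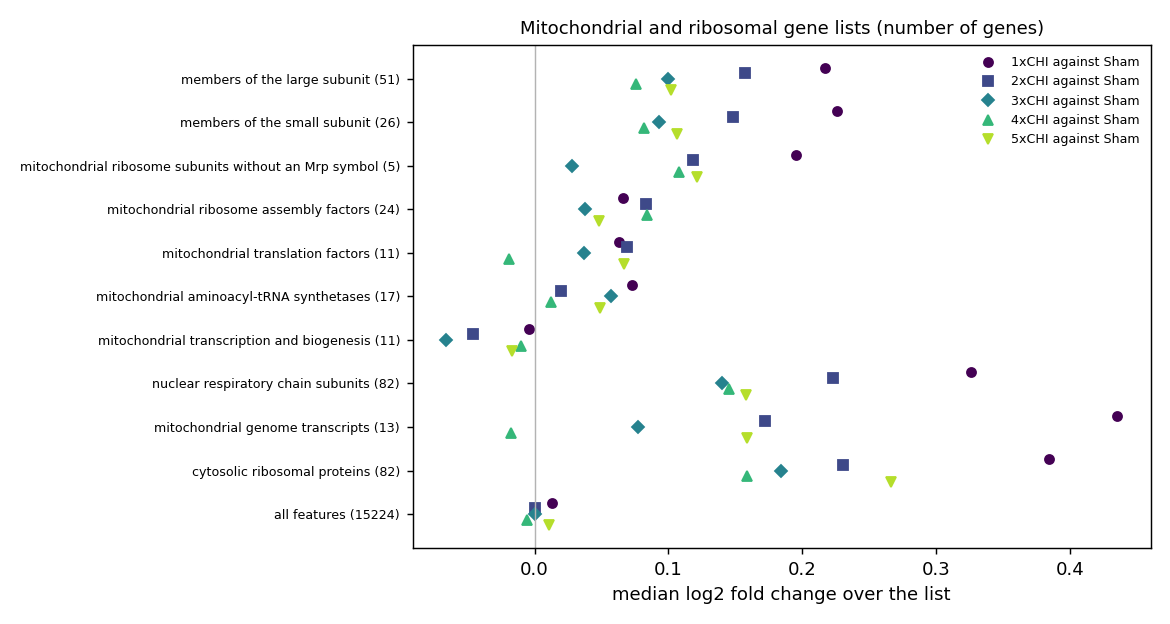
Median log2 fold change over sham of 10 gene lists and of all features, 1 marker per number of blows, with the number of genes in brackets. For both subunits of the mitochondrial ribosome 1xCHI (0.22 and 0.23) stands to the right of 2xCHI, and 3xCHI, 4xCHI and 5xCHI lie closer to 0, while assembly factors, translation factors and tRNA synthetases lie between -0.019 and 0.084 in every group.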

How the data were processed

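Total RNA from left somatomotor cortex was sequenced in bulk, 1 library per mouse. A sequencing company aligned the reads and made the count table, and the authors deposited these expected counts (estimated counts per Ensembl gene, not normalized). Of its values 4.46% were not whole, and they were rounded here before testing. The submitters' processing notes name mm10. The column names end as the gene-level output of Salmon does, but its version and settings are not given in the sources used here, nor is whether counting used strand, so reads of overlapping genes on opposite strands may not be told apart. Counts were scaled by edgeR's TMM factors and tested with its quasi-likelihood test (edgeR 4.0.16, R 4.3.3) over all 15224 features with 10 or more counts in at least 35 of 39 samples, and p-values were adjusted by Benjamini and Hochberg. Log2 CPM used a prior count of 1. All comparisons of injury with sham shared 1 fit over the 6 groups, with no covariate. The time comparisons used 1 fit over time groups. Alternatives were DESeq2 1.42.0, scaling by library size, the number range as a covariate, removal of an exon length trend, subsets of samples, and leaving out each library. The scripts were tested on simulated data. Exon lengths were summed over the annotated exons of a gene on GRCm38, the assembly of mm10, and were at hand for all 78 members and for 99.94% of features tested.

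The members and gene lists were chosen with earlier results of these data known. Genes named in full were the 4 members of lowest p after 1xCHI, 3xCHI and 5xCHI, the 2 of lowest p after 2xCHI, after 4xCHI and for time, the 3 highest and 3 lowest per length, those called, and those of set roles. Other names were chosen after their values were seen. The list of cytosolic ribosomal proteins leaves out Rps6k kinases and Rps19bp1, which its symbol pattern also matched. Of the rows marked as pseudogenes, Mrpl23-ps1 passed the count minimum and Mrpl48-ps, Mrps36-ps1, Mrps36-ps2 and Mrps36-ps3 did not. All samples were taken as separate mice, and a p-value measures the spread between these samples only. No 2 libraries of a group agreed within sampling noise. No deposited column was left without a sample (0 columns).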

Additional observations from a re-analysis of the deposited data

Results flagged for a closer look

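Among the named members, each group of 4 to 10 samples was searched for a highest or lowest sample standing far from the rest by Dixon's criterion. Of 119 groups, 9 held such a sample, where chance gives about 5.95. Sample 11, taken 24 h after 5xCHI, stood above the other 9 libraries of 5xCHI for 5 members. It had 42.6 CPM of Mrpl41 (next 34.8), 56.2 CPM of Mrps34 (next 41.6), 52.7 CPM of Mrpl10 (next 43.9), 41.8 CPM of Mrpl45 (next 34.9) and 22.5 CPM of Mrps30 (next 19.0). This is also the library with the lowest neuron marker sum and the highest microglia and astrocyte sums, and their part in these levels was not tested. Sample 31, taken 0.5 h after 5xCHI, had 25.7 CPM of Mrps36, where the next library had 22.2. Sample 38, taken 24 h after 3xCHI, stood below the others with 28.2 CPM of Mrpl58 (next 34.5) and 31.3 CPM of Mrps33 (next 39.2). Sample 22, taken 0.5 h after 3xCHI, stood above with 22.2 CPM of Mrps35 (next 19.5).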

How the results depend on the processing

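For 1xCHI against sham, DESeq2 called 1 member (1.28%, against 0.158% of features) where edgeR called 0, and the median log2 fold change of 0.22 became 0.043 with the length trend removed, 0.051 among samples 19 to 40 and 0.038 without samples 13 to 18. With the length trend removed it became 0.055 at 0.5 h, 0.034 at 4 h and 0.047 at 24 h after 1xCHI, and DESeq2 called 1 member at 0.5 h (against 0.184% of features). For 5xCHI against 1xCHI, where edgeR called 0, DESeq2 called 5 (6.41%, against 4.04% of features), the number range as covariate gave 2 (Mrps14 and Mrps36, 2.56% against 3.53%), the length trend removed gave 2 (Mrps14 and Mrps33, 2.56% against 3.1%), and samples 1 to 18 alone gave 20 (25.6% against 17.7%), while the median among samples 19 to 40 was 0.014. For 3xCHI against 1xCHI, samples 1 to 18 gave 2 (2.56% against 4.74%), and among samples 19 to 40 the median was -0.040. With the number range as covariate, the median of 3xCHI at 4 h against 2xCHI was -0.14, and all 3 medians of 5xCHI against 4xCHI turned negative (-0.046, -0.085 and -0.065), as they did with the length trend removed (-0.012, -0.014 and -0.020). The median of 5xCHI against sham was -0.0010 with the length trend removed. The cause was not tested.

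Leaving out 1 library at a time gave 0 to 6 called members for 5xCHI against 1xCHI, 0 to 43 at 0.5 h and 0 to 5 at 4 h after 1xCHI, and 0 in the other comparisons. For 5xCHI against 1xCHI, 6 were called without sample 31 (7.69%, against 4.71% of features), 4 without sample 26, 27 or 36 (5.13%, against 3.55%, 2.6% and 3.17%), and 1 (Mrpl51) without sample 11 (1.28% against 1.28%). The median ran from 0.18 to 0.24 for 1xCHI, 0.10 to 0.19 for 2xCHI, 0.078 to 0.12 for 3xCHI, 0.035 to 0.12 for 4xCHI and 0.061 to 0.12 for 5xCHI against sham. It ran from -0.15 to -0.079 for 3xCHI and from -0.14 to -0.082 for 5xCHI against 1xCHI. At 0.5, 4 and 24 h after 1xCHI it ran from 0.18 to 0.42, 0.10 to 0.29 and 0.13 to 0.21. After 3xCHI against 2xCHI it ran from -0.071 to 0.0070 at 0.5 h, -0.037 to 0.027 at 4 h and -0.15 to -0.061 at 24 h. After 5xCHI against 4xCHI it ran from -0.031 to 0.086, -0.034 to 0.044 and -0.073 to 0.072. For 24 h minus 0.5 h it ran from -0.090 to -0.036, and for the slope on blows from -0.045 to -0.016. No paired analysis was possible because every sample carries a number of its own.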

Other observations

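The library left out, sample 30 (4 h after 3xCHI), had a mean log2 difference of -0.012 over the 78 genes, inside the range of the other 3xCHI libraries (-0.23 to 0.069).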
